A study of Sus scrofa with 5 samples.

Results

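The genes GABRP, VTCN1, ISL1, TAC3, TIMP1 and CST6, used as amnion-associated markers, were followed through porcine blastoids, blastocyst-like structures made from pig embryonic stem cells (pESCs), and through the pESCs themselves. They were 6 of 30029 genes in the single-cell matrices and 6 of 29886 gene symbols in the bulk table, and all 6 were measured in both. The genes were picked because earlier work on these same files had shown them to differ with GATA3 and TP63, so their levels across these gates and their co-detection are given as descriptions, without a test. The blastoids were made from porcine ESCs, grown to day 6 in iBlastoid medium after a first step in 4FXY medium, picked by hand for a cavity and for compartments like the epiblast and the trophectoderm, and dissociated to cells for 2 droplet libraries, called library 1 and library 2. The pESCs were cultured in 4FIXY medium and sequenced in bulk as 3 libraries, named IVFP25, PA_4P7 and PAP25 in the table. The paper describes deriving pESCs from parthenogenetic blastocysts. The names differ in IVF or PA and in P25 or P7, which the labels do not explain. Whatever these marks stand for cannot be told apart from other differences between the 3 libraries. The labels name no transgene or deletion in either group, and pESCs and blastoids were measured by different assays, so no difference between them was tested.

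The amnion is a thin epithelium, continuous with the embryonic ectoderm, that encloses the fetus in fluid. In primates it forms early from the epiblast, whereas in the pig it rises later, by folding of the trophectoderm and the extra-embryonic mesoderm beneath it. Amnion, trophectoderm and surface ectoderm share many transcription factors, among them GATA3 and members of the TFAP2 family, and TP63 is best known as the master regulator of stratified epithelium. GABRP encodes the pi subunit of the GABA-A receptor, a chloride channel subunit found mainly in epithelia. VTCN1 encodes B7-H4, a membrane protein of the B7 family that restrains T cells. ISL1 encodes a LIM-homeodomain transcription factor. TAC3 encodes the precursor of neurokinin B, a secreted tachykinin peptide made by the placenta in several species. TIMP1 encodes a secreted inhibitor of matrix metalloproteinases, and CST6 encodes cystatin M/E, a secreted inhibitor of cysteine proteases of the skin.

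The 6 genes lay at 6 places in the genome and shared no promoter (Sscrofa11.1, RefSeq annotation, the build named in the submitters' processing notes). GABRP spanned chr16:53205616-53228765 on the minus strand with 10 exons, and ISL1 spanned chr16:30962994-30974201 on the plus strand with 6 exons. VTCN1 spanned chr4:103390547-103584847 (plus strand, 6 exons), TAC3 spanned chr5:22324927-22336464 (minus strand, 7 exons), and CST6 spanned chr2:6323737-6325519 (minus strand, 3 exons). TIMP1 spanned chrX:42103251-42106289 (plus strand, 5 exons) and lay wholly inside SYN1, a gene on the opposite strand. GABRP overlapped the uncharacterised lncRNA LOC110257298 on the opposite strand over 12991 bases, and VTCN1 overlapped the pseudogene LOC100621817 on its own strand. The paper names a NEBNext Ultra RNA kit for the bulk libraries but does not say whether strand was kept. FPKM of TIMP1 and GABRP may thus include reads from these partners.

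The 250 bases before the transcript start of GABRP and TAC3 are shown because cells with much TAC3 nearly always had much GABRP, while their levels were not highest at the same TP63 counts. The windows are chr16:53228763-53229012 for GABRP and chr5:22332816-22333065 for TAC3, read on the minus strand, 5′ to 3′. Capitals mark the TEAD-type letters GGAATG or their reverse complement CATTCC.
GABRP: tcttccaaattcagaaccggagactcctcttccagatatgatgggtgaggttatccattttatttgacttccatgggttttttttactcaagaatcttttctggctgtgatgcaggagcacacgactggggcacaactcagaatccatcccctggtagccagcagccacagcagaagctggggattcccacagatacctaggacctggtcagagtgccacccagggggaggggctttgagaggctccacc
TAC3: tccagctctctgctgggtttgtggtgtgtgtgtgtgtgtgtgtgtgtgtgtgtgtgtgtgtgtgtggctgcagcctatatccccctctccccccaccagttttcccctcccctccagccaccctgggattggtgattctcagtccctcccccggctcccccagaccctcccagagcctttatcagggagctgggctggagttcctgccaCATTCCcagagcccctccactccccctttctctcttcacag
The TAC3 window held 1 match to GGAATG, 36 to 41 bases before the start, and the GABRP window held none, while 10.4% of 20664 promoter windows of this length held at least 1. Among the 6 genes, VTCN1 had a match as well, in 2 copies that overlapped by their end base. No window of the 6 held AGATAA, a single form of GATA-type letters, GCCNNNGGC for TFAP2, TAATTA for LIM homeodomain proteins, or TATAAA. These letters were found on either strand in 8.64%, 21.5%, 4.09% and 10.4% of all windows. Other GATA-type forms, such as TGATAA, were not searched, so the windows may hold them. The 20664 windows lie before the annotated start of each gene, and those of the 6 before the start of their leading pESC transcript. For TAC3 and VTCN1 that start lies inside the annotated gene, so the shares are from windows of another kind. A match of letters is a description only, and the start used for VTCN1 was taken from a transcript with hardly any reads in pESCs.

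A barcode was taken as a cell from its total of unique molecular identifiers (UMIs), and the shallowest cell had 11223 UMIs in library 1 and 9807 in library 2. This gave 7369 cells with a median of 29728 UMIs in library 1 and 8175 cells with a median of 27588 UMIs in library 2, and the libraries shared 9 cell barcodes. Levels are counts per 1000000 (CPM): the UMIs of a gene per 1000000 UMIs summed over the cells of a gate. GATA3, a transcription factor of trophectoderm, had at least 1 UMI in 83.0% and 79.8% of cells. It was found in 84.2% and 75.1% of cells with at least 4 UMIs of POU5F1, and in 88.7% and 88.5% with at least 4 of PAX6. After these cells were thinned to equal depth the shares were 61.5% and 53.6%, and 63.2% in both libraries, against 62.0% and 59.4% over all cells. The GATA3 gate is thus a range of counts and not a lineage. Cells with GATA3 also had higher levels of other trophectoderm genes: 10 of 12 listed genes rose with GATA3, beside 13.7% of 18983 tested genes, among them GATA2 (log2 difference 1.95 ± 0.07, SE, adjusted p = 2.96e-06 in edgeR's quasi-likelihood test), KRT7 (1.53) and CYP17A1 (2.46). Empty droplets, taken as barcodes of 10 to 100 UMIs, held every one of the 6 genes, and their levels are given beside those of cells. Such a level is the make-up of free RNA, not the amount of it inside a cell.

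GABRP was highest in cells with both GATA3 and TP63. It reached 332 and 330 CPM in library 1 and 2 in cells with at least 1 GATA3 UMI and at least 4 TP63 UMIs. Its level was 187 and 173 with GATA3 and less TP63, 161 and 199 with TP63 but no GATA3 UMI, and 64.1 and 60.7 in cells with neither, meaning no GATA3 UMI and fewer than 4 of TP63. The level in empty droplets was 151 and 156, above that of the last gate and below that of both GATA3 gates. The 4 gates kept this outer order in both libraries, with the middle gates overlapping. Among cells with less than 4 TP63 UMIs, those with GATA3 had 2.88-fold more GABRP (log2 difference 1.53 ± 0.03, SD over 2 libraries).

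VTCN1 was a sparse gene, highest and lowest in the same gates as GABRP. It had 20.8 and 19.0 CPM with GATA3 and TP63, 10.8 and 9.25 with GATA3 and less TP63, 14.3 and 11.13 with TP63 alone, and 4.62 and 3.05 with neither. Empty droplets held 7.32 and 10.7, within the range of the gates. Among cells with less than 4 TP63 UMIs, those with GATA3 differed from those without by 1.41 ± 0.26 in log2.

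ISL1 was also highest with both genes and lowest with neither. Its levels were 89.4 and 77.0 with GATA3 and TP63, 49.3 and 39.1 with GATA3 and less TP63, 49.5 and 62.3 with TP63 alone, and 21.1 and 15.3 with neither, against 29.9 and 30.3 in empty droplets. The same difference with GATA3 was 1.29 ± 0.09 in log2. Every GATA3 value lay above the empty droplets, and every value with neither gene lay below them.

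TAC3 departed from the other genes. It had 55.2 and 37.0 CPM with GATA3 and TP63 and 58.2 and 41.6 with GATA3 and less TP63, so that the library with the higher value was library 1 in each and the gates overlapped between libraries. With TP63 alone it had 11.5 and 29.7, and with neither 25.2 and 15.8, and the libraries gave opposite orders there. Empty droplets held 46.3 and 26.0. The difference with GATA3 was 1.30 ± 0.13 in log2.

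TIMP1 and CST6, the secreted inhibitors, were at least as high in empty droplets as in most cells. TIMP1 had 415 and 375 with GATA3 and TP63, 234 and 207 with GATA3 and less TP63, 186 and 218 with TP63 alone, and 142 and 96.3 with neither. Empty droplets held 423 and 341 CPM of TIMP1, more than cells of 3 of these gates in both libraries. CST6 had 296 and 305, 249 and 249, 124 and 172, and 86.6 and 83.4 in the same order of gates, and empty droplets, with 327 and 339, lay above them all. The GATA3 differences were 0.91 ± 0.27 in log2 for TIMP1 and 1.55 ± 0.04 for CST6.

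**Figure D1:**
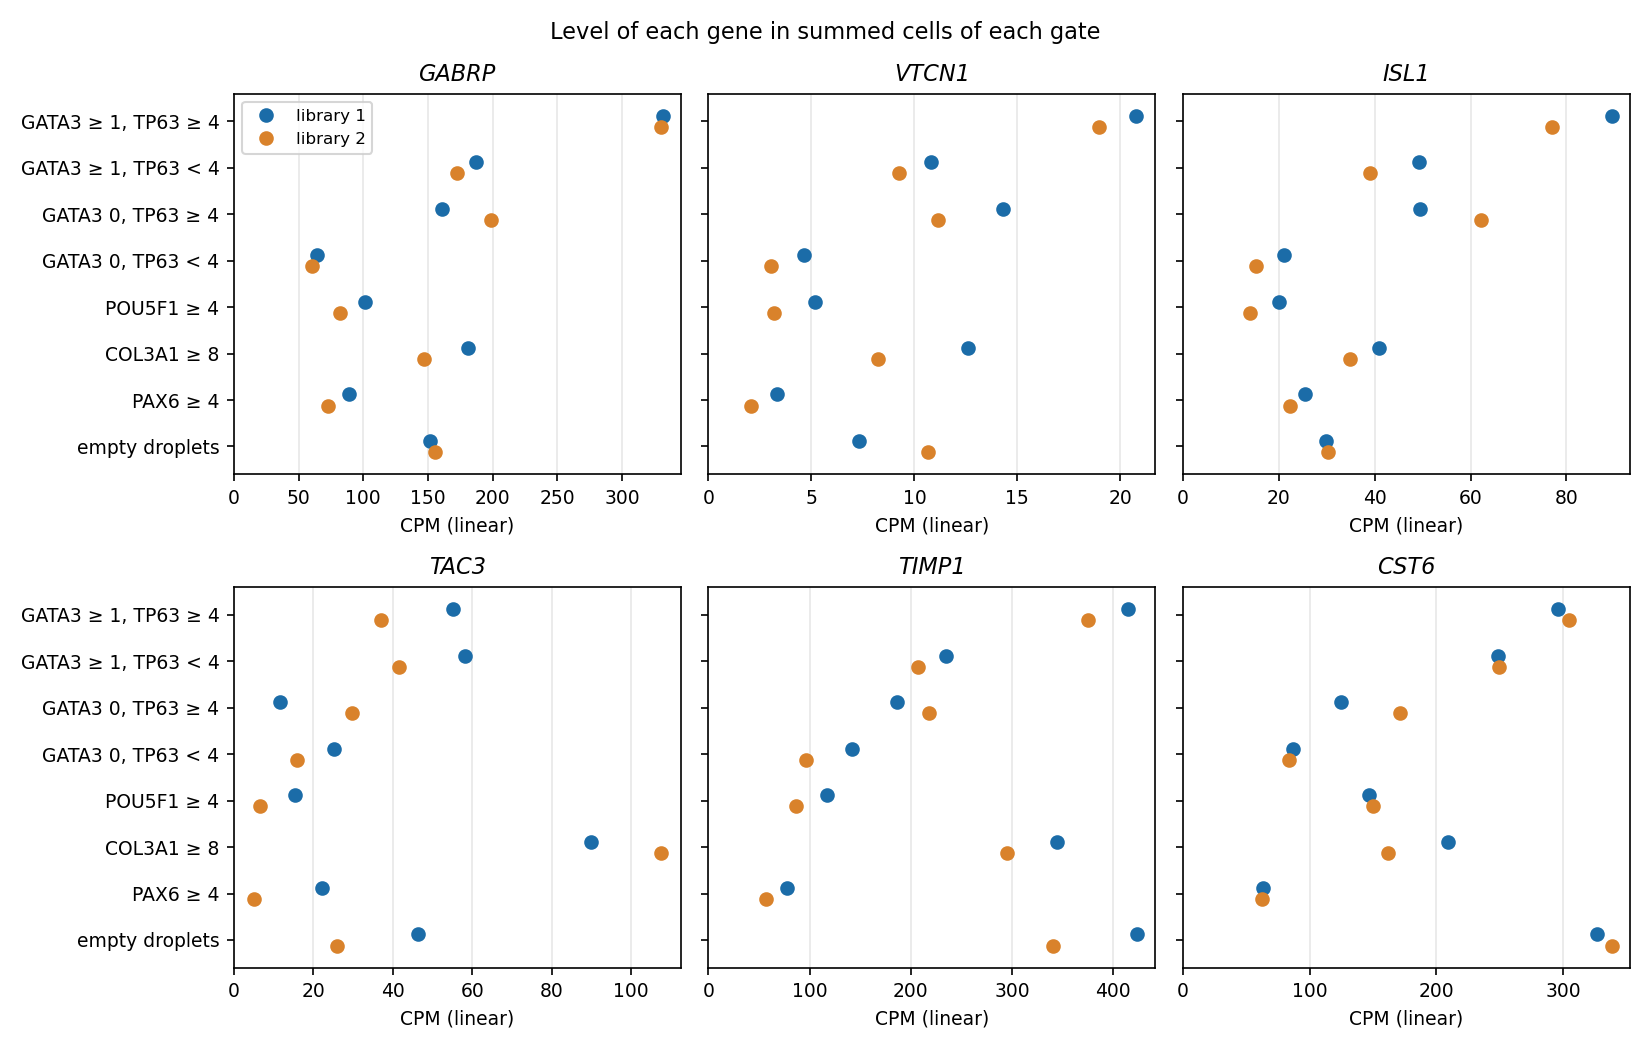
CPM (x axes, linear) of each gene in the summed cells of 7 gates and in empty droplets; each point is 1 blastoid library. GABRP, VTCN1, ISL1, TIMP1 and CST6 sit furthest right among the first 4 gates in cells with GATA3 and TP63, while TAC3 is about level in both GATA3 gates.

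All 6 genes were thus higher with GATA3 in both libraries, beside 13.7% of 18983 tested genes that were called higher with GATA3 in the edgeR fit; since the genes were chosen on this contrast, their count is not read against that share. Other things moved with the GATA3 gate. The median depth was 30840 and 28424 UMIs with GATA3 and 22770 and 22326 without. The 6 fibroblast markers summed to 249 and 151 CPM with GATA3 and to 1522 and 775 without, with no marker at 0, and the 9 epiblast markers summed to 295 and 348 with GATA3 and to 519 and 836 without. The part of these cell types in the differences was not tested. After every cell was thinned to the same number of UMIs, the threshold of library 2, and the gates drawn anew, the 6 genes stayed higher with GATA3, with a median log2 difference of 1.03 in place of 1.36.

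The genes differed in how their UMIs were spread over cells. The tenth of cells with the most TAC3 held 91.4% and 93.3% of its UMIs, with up to 244 UMIs in a cell. For VTCN1 this share was 80.5% and 85.4%, for CST6 64.1% and 63.7%, for GABRP 57.1% and 59.5%, for TIMP1 55.1% and 58.1%, and for ISL1 48.7% and 55.3%. TAC3 had the highest share and ISL1 the lowest in both libraries at full depth, but these ranks did not hold at equal depth. In thinned cells the share was 100% for VTCN1 in both libraries, where 9.16% and 8.0% of cells had a UMI of it, and 95.1% and 99.8% for TAC3. That of ISL1 was 55.3% and 64.2%, in library 2 above GABRP (60.6%) and TIMP1 (59.7%). GATA3 cells held between 92.9% and 95.7% of the UMIs of each gene, and 87.2% and 84.3% of all UMIs.

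GABRP was found in most cells with GATA3 and TP63 and in few cells with much COL3A1 and no GATA3. Among cells with GATA3 and TP63, 87.6% (95% exact binomial interval 85.9 to 89.0) and 87.0% (85.2 to 88.6) had GABRP. Cells with at least 8 UMIs of COL3A1, a fibroblast collagen, and no GATA3 served as cells that should lack it; this gate was chosen after values were seen. There 16.0% (12.1 to 20.5) and 17.3% (12.8 to 22.6) had GABRP, at a median depth of 20683 and 18944 UMIs against 32738 and 32016. At equal depth the shares were 71.9% and 70.6% against 11.3% and 10.1%. Cells gated for other lineages, whatever their GATA3, lay between: GABRP was found in 64.4% and 60.8% of cells with at least 4 UMIs of POU5F1, an epiblast factor, and in 66.9% and 65.9% of those with at least 4 of PAX6, a neural factor. At equal depth these shares were 33.9% and 30.3%, and 38.0% and 38.5%. The intervals cover counting error only.

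TIMP1 was the exception. In the same COL3A1 cells 95.9% and 94.8% had TIMP1, at 258 and 251 CPM, above the cells with GATA3 and less TP63. CST6 there had 24.4 and 36.7, ISL1 15.4 and 20.2, and VTCN1 4.62 and 2.13, each under its level in both GATA3 gates. TAC3 had 25.3 and 31.8 in them, in 19.1% and 21.8% of cells, close to the share in cells with GATA3 and less TP63 (21.1% and 16.3%) despite the lower depth. The shares with at least 3 UMIs of TAC3 were lower in the COL3A1 cells, at 2.51% and 2.82% against 8.22% and 5.88%. How much of the TAC3 in the COL3A1 cells was free RNA was not tested.

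Among cells with GATA3, those with at least 4 TP63 UMIs had a higher summed level of 5 of the 6 genes in both libraries and a lower one of TAC3. Beside this, 7.86% of tested genes were called higher with TP63, and again nothing is read from the count. The log2 difference between at least 4 and fewer TP63 UMIs was 0.88 ± 0.08 for GABRP, 0.99 ± 0.07 for VTCN1, 0.92 ± 0.08 for ISL1 and 0.84 ± 0.03 for TIMP1, or 1.79-fold to 1.98-fold, close to each other in size at full depth. With gates drawn on thinned counts each was smaller. GABRP then had 371 and 388 CPM against 269 and 251, and ISL1 106 and 97.7 against 66.2 and 52.1. At full depth the log2 difference was 0.27 ± 0.03 for CST6 and -0.12 ± 0.07 for TAC3. The share of cells with TAC3 went the other way from its summed level. TAC3 was found in 33.1% and 29.2% of cells with at least 4 TP63 UMIs, against 21.1% and 16.3% with fewer. The same cells thinned to equal depth had it in 18.6% and 14.5% against 12.2% and 9.55%. The log2 difference of TAC3 turned to 0.24 when the TP63 gate was set at 2 UMIs, and that of CST6 turned to -0.0216 in thinned cells. With gates drawn on thinned counts TAC3 stayed lower with TP63, at 60.4 and 47.8 CPM against 85.1 and 58.6. As other settings turned them, neither direction is firm. Depth was similar here, with medians of 32738 and 32016 UMIs against 30840 and 28424. Epiblast markers summed to 134 and 155 CPM with TP63 against 295 and 348 with less, neural markers to 93.6 and 87.3 against 181 and 196, fibroblast markers to 139 and 68.5 against 249 and 151, and hypoblast markers to 23.5 and 14.6 against 43.5 and 29.9. The part of these cell types in the differences was not tested.

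In finer steps of TP63 the genes were highest at different counts. In thinned cells GABRP went from 169 and 147 CPM in cells with no TP63 UMI to 359 and 356 with 2 to 3, and stood at 289 and 243 with 8 or more. ISL1 was at 42.8 and 32.4 with none, and at 113 and 91.4 with 8 or more, where it was at or near its highest. TAC3 was highest with 1 TP63 UMI, at 94.0 and 64.4, and lowest with 8 or more, at 23.5 and 24.6. CST6 peaked at 1 to 3 UMIs (371 and 347 with 1) and came back to 244 and 216. From 4 to 7 TP63 UMIs to 8 or more, held by 91 and 58 cells, TAC3 went from 58.6 and 45.9 to its lowest level in both libraries. ISL1 went from 95.5 and 94.8, higher in library 1 and slightly lower in library 2. Along GATA3, GABRP went from 139 and 117 with none to 393 and 397 with 4 to 7, TAC3 from 42.6 and 29.4 to 117 and 74.4, and CST6 from 163 and 154 to 527 and 490. ISL1 went from 44.5 and 32.5 with none to 76.4 and 58.1 with 2 to 3 GATA3 UMIs and was nearly level from there, at 78.4 and 59.4 with 4 to 7. Cells with 8 or more GATA3 UMIs numbered 14 and 21, too few to read.

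**Figure D2:**
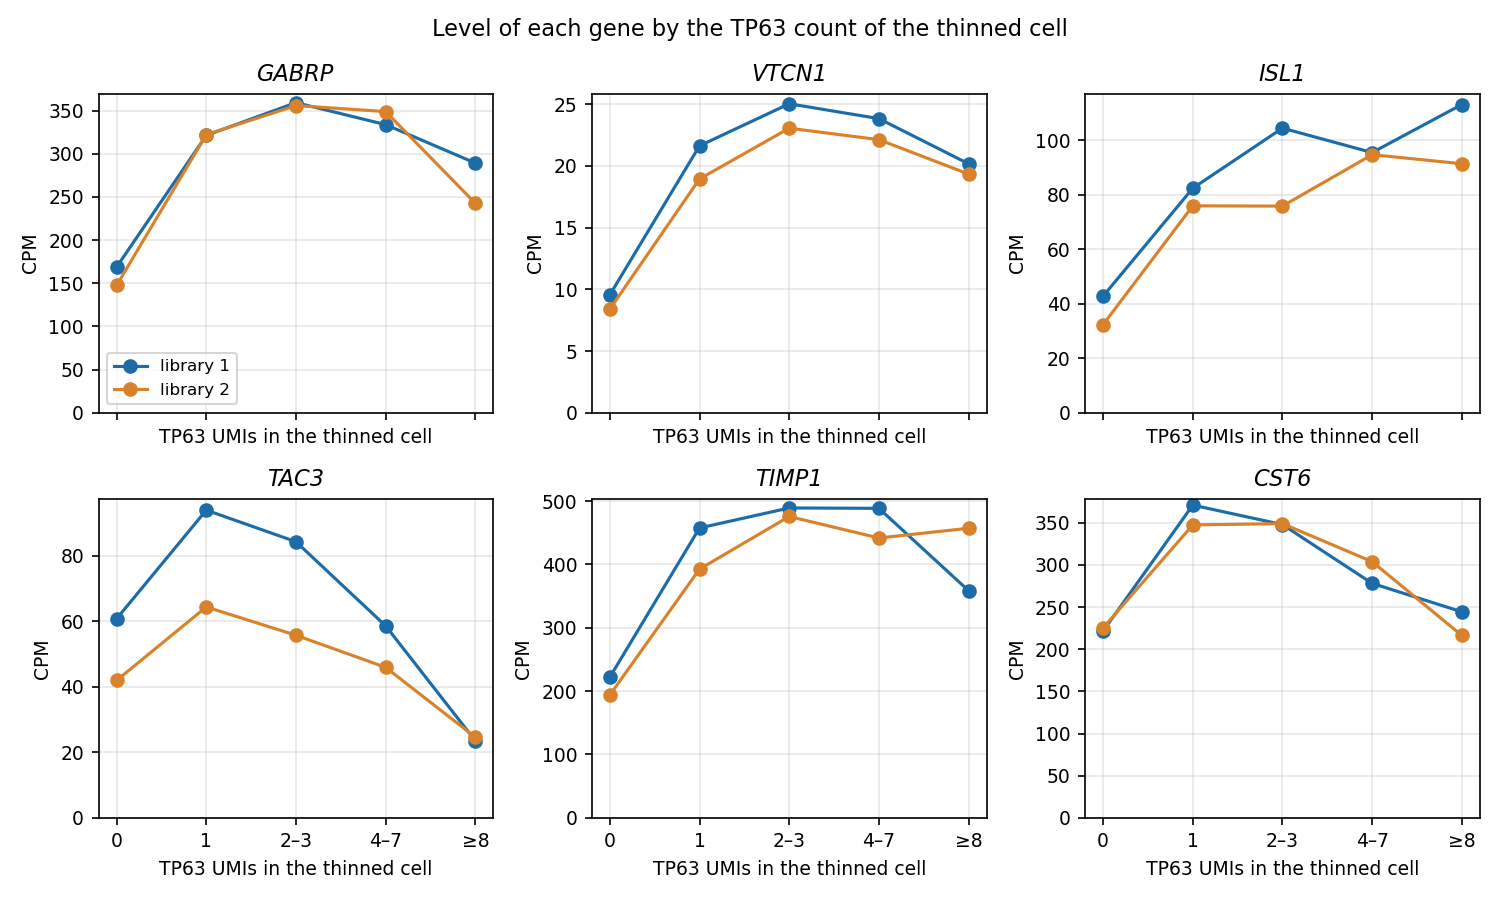
CPM of each gene (y axes, linear, from 0) against the number of TP63 UMIs in cells thinned to equal depth; lines join the bins of 1 library. GABRP, VTCN1, TIMP1 and CST6 are lowest or nearly so with no TP63 UMI, TAC3 is lowest with 8 or more, and ISL1 is at or near its highest there.

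The genes were detected in the same cells more often than independence gave. They were picked for differing with GATA3 and TP63, and pairs of other genes were not counted. The number of pairs above independence is therefore not read as unusual. In thinned cells, which have equal depth, each of the 15 pairs was found in more cells than the product of its detection rates gave, by 1.23-fold (ISL1 with TIMP1) to 3.58-fold (VTCN1 with TAC3, 3.58 ± 0.63, SD over 2 libraries). VTCN1 and TAC3 were both found in 280 and 266 cells, where 89.5 and 66.1 would be met by independence. GABRP was found in 87.3% and 90.2% of cells with VTCN1 and in 43.8% and 41.7% of cells without it. It was found in 80.2% and 80.3% of cells with TAC3 and in 42.8% and 41.7% of cells without. One UMI can also be free RNA, and the part of free RNA in the ratios was not tested. In the COL3A1 cells without GATA3, at equal depth, TAC3 was found in 10.97% and 14.1% of cells and VTCN1 in 3.13% and 2.02%. CST6 was found in 11.6% and 15.3% of them, and TIMP1 in 86.2% and 79.4%. Whether these UMIs were free RNA or the cells' own was not tested. At 10 UMIs or more of each gene, a level chosen after seeing the data, all 15 mean ratios were above 1, with a median of 3.92. VTCN1 reached that count in 20 cells of each library, and its ratio with ISL1 rested on 6 cells and 1 cell (8.01 and 2.10). ISL1 was found in 38.1% and 32.7% of cells with TIMP1 against 23.3% and 17.5% without.

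The ratios were also above 1 inside the GATA3 cells. Within thinned cells with GATA3 the ratios ran from 1.17 for ISL1 with CST6 to 3.26 for VTCN1 with TAC3, with a median over pairs of 1.51 against 1.56 in all cells. Those cells were gated on thinned counts (4568 and 4854 cells). When GATA3 and TP63 were gated on the full counts instead, the median in thinned cells was 1.23 with GATA3 and at least 4 TP63 UMIs and 1.63 with GATA3 and fewer; all 15 pairs were above 1 in each. As ratios are bounded by how often a gene is found, high ratios of sparse genes and low ratios of common genes should not be ranked as strength.

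**Figure D3:**
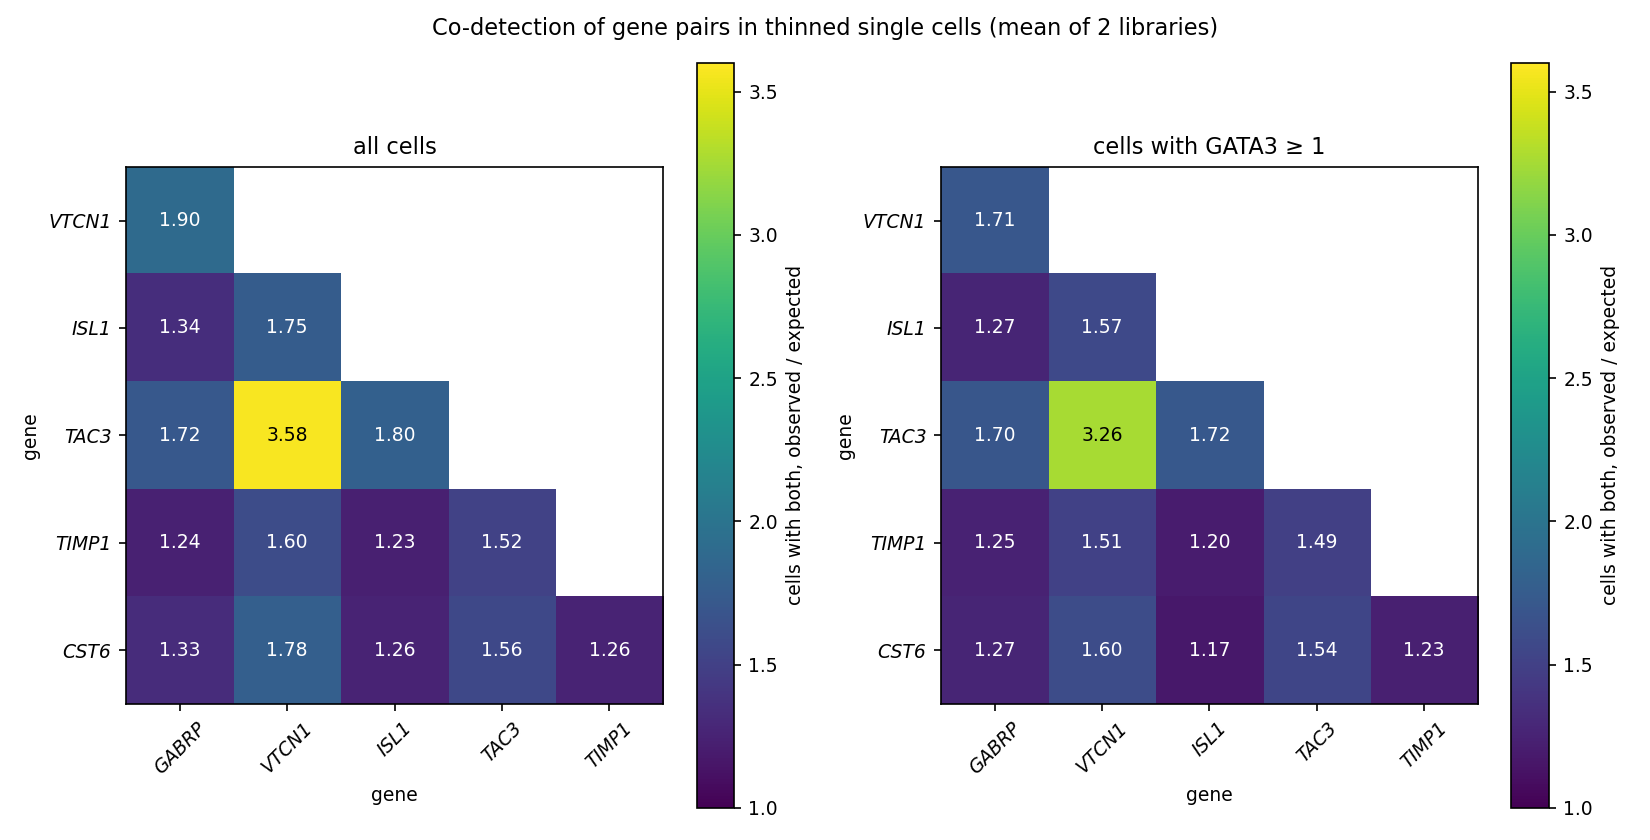
Cells with both genes over the number expected from independence, as the mean of 2 libraries in thinned cells, for all cells (left) and for cells with GATA3 (right); the colour scale starts at 1. VTCN1 with TAC3 is highest in both panels, at 3.58 and 3.26, and no pair falls under 1.

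The 6 genes were also counted per cell, which recounts the same detections and is not a separate result. In cells thinned to equal depth the mean number found was 2.94 and 2.85 with GATA3 and TP63, 1.96 and 1.88 with GATA3 and less TP63, 2.04 and 2.23 with TP63 alone, and 1.29 and 1.16 with neither. At least 4 of the 6 were found in 37.7% and 34.4% of cells with GATA3 and TP63, in 17.7% and 15.0% with GATA3 and less TP63, in 12.5% and 16.5% with TP63 alone, and in 4.37% and 3.57% with neither. All 6 were found in 146 cells of library 1 and 150 of library 2, or 1.98% and 1.83%. Of these, 61 and 51 had GATA3 and TP63, 74 and 93 GATA3 and less TP63, 1 and 0 TP63 alone, and 10 and 6 neither.

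**Figure D4:**
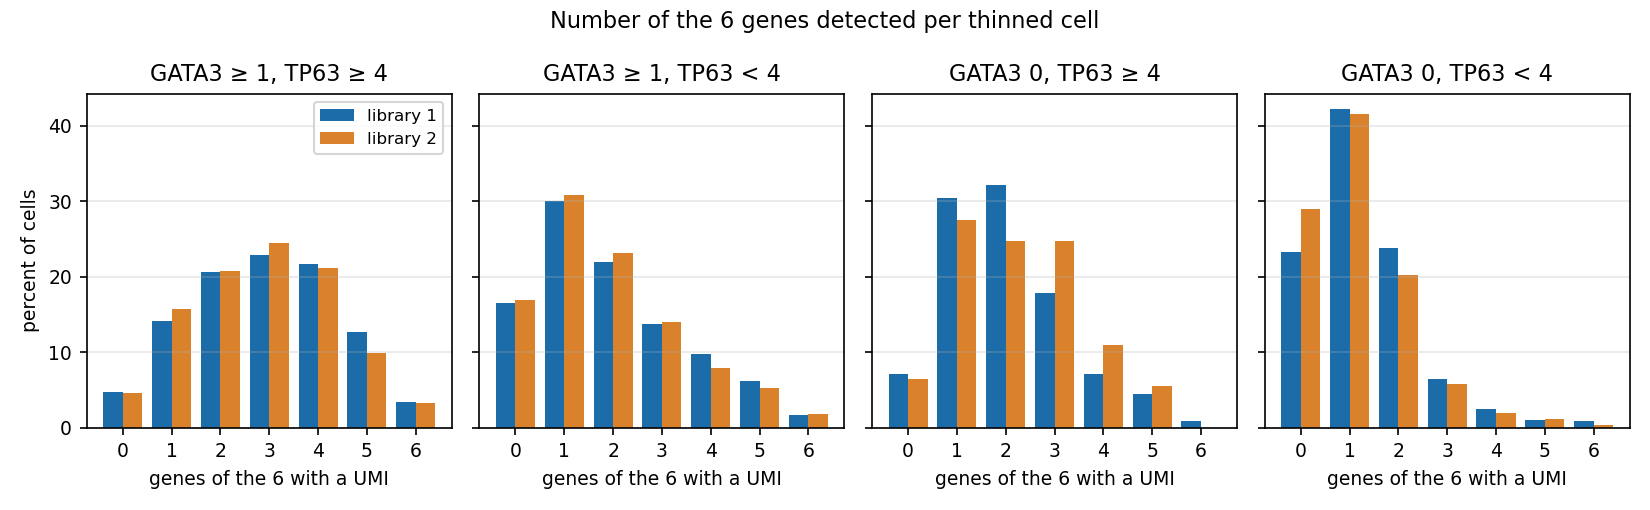
Percent of cells (y axis) by how many of the 6 genes had a UMI in the thinned cell (x axis), in 4 gates set on the unthinned counts; bars are the 2 libraries. Cells with GATA3 and TP63 centre on 3 genes, and cells with neither centre on 1.

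Cells with much TAC3 were almost all cells with much GABRP, but not the reverse. Of cells with at least 10 TAC3 UMIs, 310 of 319 in library 1 (97.2%) and 202 of 206 in library 2 (98.1%) also had at least 10 GABRP UMIs. Of the 1626 and 1517 cells with that much GABRP, 19.1% and 13.3% had at least 10 TAC3 UMIs, and 667 and 716 had none. Within GABRP-high cells, those with at least 10 TAC3 UMIs had 1068 and 1305 CPM of GABRP, against 511 and 503 in those with no TAC3. VTCN1 was 70.6 and 86.5 against 26.3 and 24.8, TIMP1 1097 and 1343 against 501 and 471, and CST6 1159 and 1405 against 490 and 531. ISL1 differed less, 114 and 133 against 81.5 and 72.7, and TP63 was lower, 94.7 and 99.9 against 142 and 119. The cells with TAC3 had fewer UMIs, with medians of 26764 and 23658 against 34481 and 32800, so an equal count of GABRP was a higher level in them. COL3A1 was 120 and 78.8 CPM in them against 30.8 and 13.7, and its part in the pattern was not tested.

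Pearson's r across cells, of levels on a log scale within each library, named the genes most like each member out of 13105, ranked by the lower r of the 2 libraries; the cells share a library, depth and free RNA, and r is given as a description. By that rank GABRP was most like EPAS1, a hypoxia-inducible transcription factor (r = 0.69 in both libraries), and CST6 (0.74 and 0.69, the higher r in library 1), then TIMP1 (0.68 in both), WNT6, a Wnt ligand, and CYP17A1, a steroid hydroxylase. VTCN1 was most like GABRP (0.57 and 0.58), followed by EPB41L3, EPAS1, CST6 and TIMP1. TIMP1 was most like GABRP and CST6, and CST6 was most like CSTB, another cystatin (0.72 and 0.71), and S100A6 (0.74 and 0.71). TAC3 was most like CLVS2 (0.64 and 0.61) and EPB41L3 (0.56 in both), with GABRP next (0.56 and 0.53). The closest genes of ISL1 were PDE3A, a cyclic nucleotide phosphodiesterase (0.50 and 0.53), SULF1, a heparan sulfatase, NTRK2, a neurotrophin receptor, SNAP91 and PLXNA2, and no other of the 6 was among them. By r with ISL1, TIMP1, TAC3 and VTCN1 still ranked 42, 124 and 184 of the 13105, and GABRP had a higher r than these (0.37 and 0.40). The r of ISL1 with the other 5 ran from 0.20 to 0.40, whereas those 5 had r of 0.44 to 0.74 with each other.

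The 6 genes were low in cells gated for POU5F1 or PAX6. In cells gated for COL3A1 on full counts the summed levels of TIMP1 and TAC3 were not low, and the other genes lay under their levels over all cells. In cells with at least 4 UMIs of POU5F1 (1084 and 1641 cells, median depth 42712 and 38270 UMIs), GABRP had 101 and 81.8 CPM, VTCN1 5.19 and 3.20, ISL1 20.1 and 14.1, TAC3 15.5 and 6.55, TIMP1 117 and 86.2, and CST6 147 and 150. Each was under its level over all cells in both libraries, with TAC3 furthest below (log2 difference -2.13 ± 0.50) and CST6 least (-0.69 ± 0.04). With the POU5F1 gate redrawn on thinned counts, which kept 325 and 622 cells, the gaps were wider. CST6 then had 90.4 and 76.6 CPM against 262 and 257 over all thinned cells, and TAC3 4.71 and 4.43 against 67.7 and 46.3. In cells with at least 4 UMIs of PAX6 each was again under its level over all cells, and TAC3 had 22.1 and 4.95 and TIMP1 77.5 and 57.2. In cells with at least 8 UMIs of COL3A1, TIMP1 had 344 and 295, against 275 and 230 over all cells. GABRP had 181 and 147 there against 214 and 193, and VTCN1 12.6 and 8.25 against 13.0 and 10.6. ISL1 had 41.0 and 34.9 against 57.5 and 44.6, and CST6 209 and 162 against 242 and 237. TAC3 had 90.01 and 107 there, against 53.0 and 36.6 over all cells, while in such cells without GATA3 it had the 25.3 and 31.8 given above. Few cells carried that sum: TAC3 had a median of 0 UMIs in the gate, and 50 of 687 and 19 of 475 cells had at least 10. The same cells thinned to equal depth had TAC3 in 21.0% and 17.1%, against 13.3% and 10.1% over all cells. With the gate redrawn on thinned counts, which kept 452 and 333 cells, TAC3 had 54.4 and 31.9 CPM, under the 67.7 and 46.3 over all thinned cells. GABRP then had 58.0 and 35.2 against 225 and 202, and VTCN1, ISL1 and CST6 were lower as well. TIMP1 had 333 and 298 against 306 and 263.

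Of the other amnion-associated genes, some rose and some fell. Of 14 measured, 5 rose and 3 fell with GATA3, with a median log2 difference of 0.18 beside -0.00165 over all genes, of which 28.1% were called and 13.7% called higher. ITGB6, an epithelial integrin (2.34 ± 0.15, SE, adjusted p = 2.48e-05, edgeR), WNT6 (1.75), TFAP2A (1.74), IGFBP3 (1.37) and DLX5 (1.13) rose, and BMP4, a BMP ligand (-1.55 ± 0.26, adjusted p = 0.00257), GADD45G (-0.86) and BAMBI, a BMP pseudoreceptor (-0.72), fell. With TP63, 7 rose and 1 fell, beside 14.8% of all genes called and 7.86% called higher. With the library as a replicate block 11 of the 14 were called with GATA3, 7 of them higher, and 10 with TP63, 9 of them higher, beside 40.2% and 33.0% of all genes called with the block and 19.9% and 16.3% called higher; HAND1, MSX2 and NR2F2 were the genes added with GATA3. With TP63, TNC, a matrix glycoprotein (1.34), NR2F2 (1.20), WNT6 (1.02) and IGFBP3 (0.90) rose most, and DLX5 (-0.74 ± 0.12, adjusted p = 0.0049, edgeR) fell. WNT6 had 172 and 163 CPM with GATA3 and TP63, 88.3 and 82.0 with less TP63, and 28.3 and 24.8 with neither, with no overlap between these gates.

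Most of the other GABA-A subunits, relatives of GABRP, fell with GATA3. Of 13 tested, 11 fell with GATA3, beside 14.4% of all genes called lower, GABRA3 (-1.90) and GABRB1 (-1.88) among them, and the delta subunit GABRD was the 1 that rose (2.79 ± 0.25, adjusted p = 0.000131, edgeR), at levels of 2.10 and 2.34 CPM with GATA3. With TP63, 3 of the 13 were called, of which GABRD rose (0.61) and 2 fell, GABRG3 (-0.59) among them, beside 14.8% of all genes called. With the library as a replicate block 8 of the 13 were called with TP63, beside 33.0% of all genes. Neurokinin B acts on TACR3, the receptor with the highest affinity for it, and TACR3 did not pass with GATA3 (log2 difference -1.19, adjusted p = 0.0579, edgeR, and 0.0421 with the replicate block). TACR3 was very low, at 0.17 CPM in both libraries with GATA3 and less TP63, and 0.51 and 0.33 with neither gene. TACR1, which prefers substance P, rose with GATA3 (1.33 ± 0.21, adjusted p = 0.00213, edgeR) and with TP63 (0.98 ± 0.19, adjusted p = 0.0114), from 8.84 and 4.94 CPM with neither gene to 17.7 and 14.9 with GATA3 and 32.0 and 30.2 with both. With the replicate block 3 of the 4 tachykinin genes, TACR3 among them, were called with GATA3, beside 40.2% of all genes.

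Genes related to VTCN1, ISL1, TIMP1 and CST6 showed smaller differences, CST3 apart. Of the B7 genes, CD276 had a log2 difference of -0.18 with GATA3 (adjusted p = 0.132, edgeR, and 0.0442 with the replicate block), CD274 -0.24 (0.549) and CD80 0.08 (0.870). Of the partners of LIM factors, LDB1, the cofactor that binds LIM domains (0.36 ± 0.09, adjusted p = 0.0146, edgeR), and LMO4 (0.25, adjusted p = 0.00946) rose with GATA3. Of 6 tested metalloproteinases and their inhibitors, MMP14 rose (0.36) and MMP2 fell (-0.36) with GATA3, and TIMP2 (-0.40) and MMP2 (-0.33) fell with TP63; with the replicate block 3 were called with GATA3. Of 8 cystatins and cysteine proteases, 5 rose with GATA3, led by CTSZ (0.64) and CTSB (0.58), and CST3, the secreted cystatin C (-1.71 ± 0.24, adjusted p = 0.00105, edgeR), fell, from 3060 and 1977 CPM with neither gene to 874 and 595 with GATA3. CTSV (0.55), CTSB (0.40) and CSTB (0.30) rose with TP63, and 6 of the 8 were called there with the replicate block. Across all genes 5336 of 18983 (28.1%) were called with GATA3 and 2815 (14.8%) with TP63, or 7625 and 6257 with the library as a replicate block.

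Of other lineages, fibroblast and hypoblast genes mostly fell with GATA3, and epiblast and neural genes mostly fell with TP63. Of all genes, 14.4% were called lower with GATA3 and 6.97% lower with TP63. Fibroblast genes fell with GATA3 in 6 of 6 tested, with LUM at -2.67 and COL1A1 at -2.54, and hypoblast genes in 4 of 5, with GATA4 at -2.53; PDGFRA is on both lists. Epiblast genes fell in 5 of 9 with GATA3, with DNMT3B at -1.86, while LIN28A rose (0.44), and in 7 of 9 with TP63, with POU5F1 at -1.83. Of 5 tested neural genes, 5 fell with TP63, with PAX6 at -1.70, and with GATA3 PAX6 (0.60) and STMN2 (0.70) rose and SOX1 (-3.08) fell. The neural markers summed to 181 and 196 CPM with GATA3 and less TP63, above the 143 and 154 with neither. With the replicate block 8 of 9 epiblast genes were called in each contrast and 5 of 5 hypoblast genes with GATA3, beside 40.2% of all genes called with GATA3 (20.3% lower) and 33.0% with TP63 (16.7% lower). With that block 6 of 6 fibroblast and 4 of 5 hypoblast genes were called with TP63, against 1 of each, PDGFRA, without it. TP63 set the gates and is left out of the surface ectoderm genes. Of 6 others tested, 4 rose with TP63, beside 7.86% of all genes. They included ITGA6 (0.57) and COL17A1 (1.05), the latter at only 0.99 and 0.98 CPM with GATA3 and TP63. KRT5, at 0.18 CPM there in both libraries, was too low to test, and KRT14 was not in the matrices. With the block 6 of the 6 were called with TP63, 5 of them higher and GRHL3 lower (-0.48 without the block). With GATA3, 1 of the 6 rose, and 3 were called with the block. Of the 12 trophectoderm genes CDX2 fell with TP63 (-1.18 ± 0.27, adjusted p = 0.023, edgeR), at only 0.52 and 0.41 CPM against 1.08 and 1.11 with less TP63. CYP17A1 (0.97), KRT7 (0.44), SFN (0.36) and KRT18 (0.20) rose with TP63, and 6 of the 12 were called with the block. CDX2 (0.24) and DAB2 (0.07) were the genes of this list not called with GATA3.

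In pESCs, from which blastoids are made, the genes were far apart in level. Here the unit is FPKM, which is per length, so levels of genes may be compared within a library. GABRP had 48.2, 51.9 and 21.3 FPKM in IVFP25, PA_4P7 and PAP25, and TAC3 had 64.3, 14.6 and 46.1. Both stood at or above the 75.5th percentile of the gene symbols with FPKM above 0 in each library, and their ranges overlapped. TIMP1 had 9.65, 7.81 and 7.11, and CST6 1.498, 1.14 and 1.27, a range of 1.36-fold and 1.31-fold over the libraries. ISL1 had 0.0350, 0.0607 and 0.644 FPKM, and the value in PAP25 was 18.4-fold that of IVFP25. VTCN1 had 0.0248 and 0.00836 and was listed at 0 in PAP25.

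The pESC libraries therefore ordered GABRP and TAC3 highest, TIMP1 and CST6 next, and ISL1 and VTCN1 lowest, and TIMP1 and CST6 did not overlap with their neighbours in that order. ISL1 and VTCN1 did not overlap either, with 0.0350 the lowest of ISL1 and 0.0248 the highest of VTCN1. POU5F1, the pluripotency factor that defines the label, had 432 to 639 FPKM. GATA3 had 0.339, 0.122 and 3.97 FPKM and TP63 had 0.234, 0.0760 and 0.173, so that PAP25 was the library with the most GATA3 and the most ISL1 but the least GABRP; the part of GATA3 in ISL1 was not tested. In these bulk libraries fewer cells with a gene and less RNA per cell cannot be told apart.

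**Figure D5:**
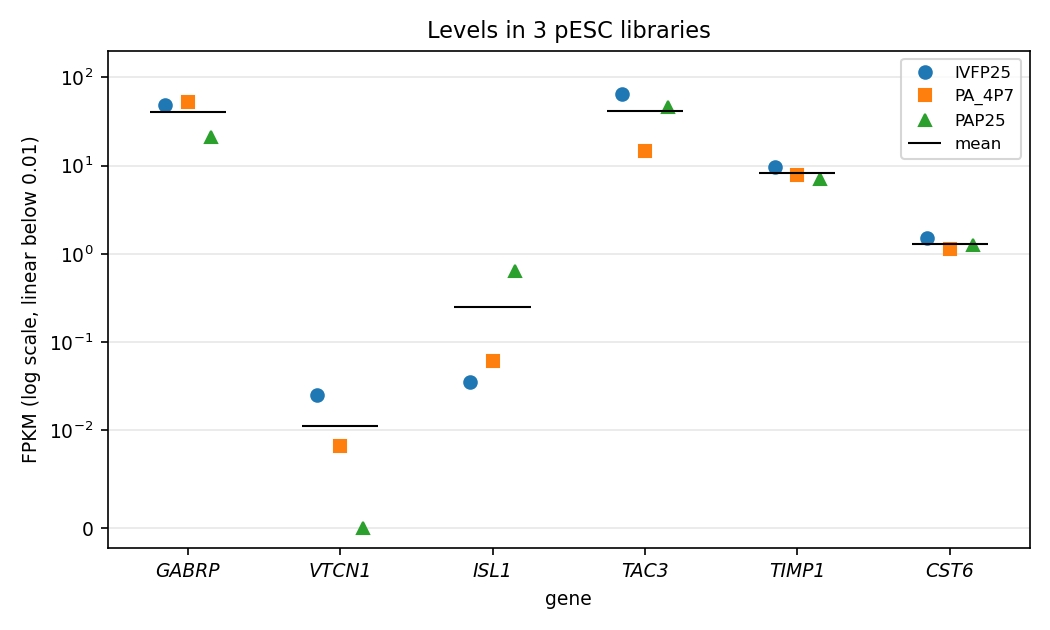
FPKM of each gene in 3 pESC libraries (points, named by their column) and their mean (line), on an axis that is logarithmic above 0.01 and linear below. GABRP and TAC3 lie between 14.6 and 64.3, ISL1 and VTCN1 under 1, and VTCN1 is at 0 in PAP25.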

How the data were processed

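The 2 blastoid libraries (single cells) and 3 pESC libraries (bulk) were used. The deposited count matrices hold UMI counts that the authors made with Cell Ranger 7.1.0 on susScr11; the FPKM values per transcript were made by the authors with Trim Galore 0.6.4, HISAT2 2.2.1 and StringTie 2.2.1, and were summed per gene symbol here. Cells were called by total UMIs (order-of-magnitude rule of Cell Ranger) and sorted by UMI counts of GATA3 and TP63 in place of clusters. UMIs were summed per library and gate, which left 18983 genes after edgeR's filter on low counts, and tested with edgeR 4.0.16 (TMM, quasi-likelihood, Benjamini-Hochberg, 5% level); all 6 genes passed the filter. No labels state that the 2 libraries came from separate cultures, so p-values measure only the spread between these libraries. Sums of 1 library share its preparation (correlation of deviations 0.080 to 0.585 over 18983 genes), hence counts from a blocked fit, with library as block, stand beside those it moves. For the GATA3 contrast 97.0% of simulated 2-fold changes in 200 genes were found, and 99.5% for the TP63 contrast, on 18492 and 18498 genes. False calls numbered 11 and 10. The simulation changed only genes with higher counts, gave every gene the same median dispersion (0.00775) and drew all sums independently. Real genes differ in spread and sums of 1 library deviate together, so these shares are not the power for any given gene.

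Cells were thinned to the UMI threshold of library 2, which left out 0 cells. Doublets were scored with Scrublet (scanpy 1.11.5), whose own threshold marked 1 and 0 cells and so did not work; they were kept, and the 436 and 578 highest scores were left out as an alternative. The genes, lists and gates were chosen with earlier results of these data known. Named genes were the 6, the 5 most correlated genes of each, and per list up to 4 passing genes a direction; TACR3 and the B7 genes were named after their values were seen. Some genes that this rule picks are not reported here. FPKM files give no depth. Sequences were read from the RefSeq Sscrofa11.1 genome, the same assembly as susScr11; 29862 of 30029 gene names matched its annotation. Other tools were DESeq2 1.42.0, R 4.3.3 and Python 3.11.15. Of protein sequences, none were used here.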

Additional observations from a re-analysis of the deposited data

How the results depend on the processing

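The median log2 difference of the 6 genes with GATA3 was 1.36 and kept its direction under every alternative run; it was 1.03 in thinned cells, and left out 1 library at a time it was 1.23 to 1.45. With TP63 the median was 0.86, and it was 1.10 with the TP63 gate at 2 UMIs, 0.95 without likely doublets and 0.61 in thinned cells. Of the single genes, the TP63 difference of TAC3 turned to 0.24 with the gate at 2 UMIs and that of CST6 to -0.0216 in thinned cells; the cause was not tested. The median co-detection ratio was 1.17 in unthinned cells, 1.56 in thinned cells, 2.02 at 3 UMIs or more of each gene, 1.51 in thinned GATA3 cells and, chosen after seeing the data, 3.92 at 10 UMIs or more, 1.23 in thinned cells with GATA3 and TP63 and 1.63 in those with GATA3 and less TP63, both gated on full counts, unlike the thinned GATA3 cells, which were gated on thinned counts. All 15 pairs stayed above 1 in each of these settings. Leaving out a replicate gave 1.15 and 1.20. Genes called with GATA3 numbered 5336, and 2947 of 16366 tested in thinned cells; the cause was not tested. Genes called with TP63 numbered 2815, and 6257 with the library as a replicate block; GATA3 calls with that block were 7625. RLE size factors, DESeq2, no filter on low counts, a GATA3 gate at 3 UMIs, a mitochondrial filter and leaving out likely doublets kept both counts within 1.5 times. Leaving out a library leaves 1 sum in each arm and no residual degrees of freedom, so these counts have no such value. Mean FPKM moved by less than 1 SD with the highest transcript in place of the sum. With 3 libraries the SD cannot judge leaving one out: the mean of ISL1 was 0.247 and became 0.0478 without PAP25, and that of VTCN1 was 0.0111 and became 0.00418 without IVFP25. Sparse counts limit VTCN1 most, with 3299 and 2808 UMIs in all cells.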

Other observations

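Barcodes under the cell threshold with at least 1000 UMIs (3108 and 3661 barcodes) were in no comparison. They held 160.6 and 138.3 CPM of GABRP, against 151 and 156 in empty droplets, and 56.6 and 46.6 of TAC3, against 46.3 and 26.0. TIMP1, with 235 and 210 against 423 and 341, and CST6, with 179 and 173 against 327 and 339, were lower there than in empty droplets in both libraries, as they were in cells with GATA3 and less TP63. For TIMP1 and CST6 the 95% exact Poisson intervals of these barcodes and of empty droplets did not overlap in either library (for CST6 in library 1, 171 to 186 against 299.8 to 355.7). Other genes were higher in these barcodes, with intervals that did not overlap in 1 library only: VTCN1 (15.7 against 7.32) and ISL1 (43.2 against 29.9) in library 1, and TAC3 in library 2. In the other library VTCN1 had 11.02 against 10.7 and ISL1 31.3 against 30.3. These intervals cover counting error only.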
